A study of Mus musculus with 2 samples.

Results

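Mir21a, the mouse gene of microRNA 21 (ENSMUSG00000065455.1 in the count tables), was examined in adrenal gland tissue. It was found by its gene symbol in the GENCODE M21 annotation and is 1 of the 2202 miRNA genes counted. The tissue came from female mice 4 days after birth of the strain B6CASTF1/J, first-generation hybrids between C57BL/6J and CAST/EiJ, with no treatment named. The series holds 2 libraries of this 1 group, numbered replicates 1 and 2. They are described as different females but carry the same donor identifier, so whether their spread lies between animals rests on the description alone. There is no second condition, and the data therefore describe the level of Mir21a, its place among the other miRNAs and its spread over the libraries.

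A miRNA is cut from a hairpin transcript by Drosha and Dicer, is loaded into an Argonaute protein, and pairs with messenger RNAs mainly through its seed, bases 2 to 8. MicroRNA 21 is found in most tissues and rises in many tumours, in inflammation and in fibrosis. It represses Pdcd4, an inhibitor of translation, and Spry1, an inhibitor of MAP kinase signalling. In cultured adrenocortical cells it is known to be induced by angiotensin II, the hormone that drives aldosterone secretion by the outer cortex.

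The gene lies on chromosome 11 at chr11:86584067-86584158 (mm10, minus strand, 92 bases). The whole hairpin falls in the 3′ UTR exon of Vmp1, a protein-coding gene of autophagy on the same strand, in 1 transcript of Vmp1. The other 7 annotated Vmp1 transcripts do not overlap it. The mature sequences below, from the RefSeq table for GRCm38.p6, show both arms of Mir21a and the mature miRNAs of the genes named after it, Mir21b and Mir21c. They are printed because they decide which reads can be told apart from Mir21a. Capitals mark the seed.
miR-21a-5p: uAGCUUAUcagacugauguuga
miR-21a-3p: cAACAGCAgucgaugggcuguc
miR-21b: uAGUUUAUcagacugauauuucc
miR-21c: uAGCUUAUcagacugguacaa

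The 5p arm, at chr11:86584120-86584141, has a GC content of 36.4%, and the 3p arm, at chr11:86584082-86584103, has 59.1%. In the lowest-energy fold predicted for the hairpin (-46.20 kcal per mol), 19 of the 22 bases of the 5p arm paired with the 3p arm. Of the mature miRNAs in that RefSeq table, miR-21c alone shares the seed of miR-21a-5p, and none shares that of miR-21a-3p. Mature miRNAs missing from the table were not searched, so other mouse miRNAs with this seed may exist. Counted from 1 at the 5′ end of miR-21a-5p and compared without gaps, miR-21b differs by C4U, which lies in the seed, and by G18A, G21U and A22C. MiR-21c differs outside the seed, by A16G, G18A, U19C, U20A and G21A.

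Each mature arm of Mir21a occurred in 1 of the 2202 annotated hairpins, its own. The longest run that its hairpin shares with any other is 15 bases, with Mir21c, followed by 13 bases with Mir21b. This is below the run of 18 bases that was taken to make a read ambiguous, whereas 1135 of the 2202 genes share such a run with a hairpin elsewhere. Reads that map to several places were left uncounted for every gene, and by this search the count of Mir21a is not one that such a loss would lower. The search covered annotated hairpins and not the rest of the genome. Reads were assigned to the hairpin gene, so the arms were not told apart, and a CAST/EiJ allele that differs from the reference could lower the count in both libraries.

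Mir21a was an abundant miRNA of this tissue, with similar levels in the libraries. It had 91622 reads among 4960537 reads assigned to miRNA genes in replicate 1, and 87004 among 4506482 in replicate 2. Scaled to 1000000 miRNA reads (CPM), these are 18470 and 19306 CPM, with a mean of 18888 CPM ± 591 (SD, n = 2). Its share of miRNA reads was 1.85% in replicate 1, with a 95% Wilson interval of 1.84 to 1.86. In replicate 2 the share was 1.93%, with an interval of 1.92 to 1.94. The reads carry no molecular identifiers, and the intervals cover counting error only. The mean was 126-fold above the median of the 377 detected genes, those that reached 10 reads in each library (150 CPM).

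Nearly all of these reads lay on the strand of the gene. On the opposite strand 1 read was counted in replicate 1 and none in replicate 2. Of the reads on both strands, the opposite strand held 0.00109% in replicate 1, with a 95% Wilson interval of 0.000193 to 0.00618. In replicate 2 the upper Wilson bound of the count of 0 was 0.00442%. Counting reads on either strand therefore left the count of Mir21a at 91623 and 87004, but it lowered the library totals to 3942397 and 4009427, with 1018277 and 497237 reads listed there as ambiguous between genes. On that total, Mir21a stood at 23240 and 21700 CPM, and the order of the libraries was the other way round (log2 ratio of replicate 2 over replicate 1 -0.10). Mir126b is annotated within Mir126a on the opposite strand, so reads of Mir126a may be among the ambiguous ones, which was not tested. This reversal may therefore not be separate from the one without Mir126a given below.

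Mir21a ranked 16 by mean CPM, 14 in replicate 1 and 19 in replicate 2. Of the other detected genes, 12 were above it in both libraries and 357 below it in both. The remaining 7 overlapped its range and cannot be placed above or below it. These were Mir335, Mir99a and Mirlet7b, next above it by mean, Mir127, Mir139 and Mir378a, next below, and Mir22. A sequenced read spans a whole mature miRNA, so levels were compared per read. Per base of the annotated hairpin Mir21a ranked 19, and among genes whose hairpins share no run it ranked 10. Ligation and amplification differ between miRNAs, and their part in this order was not tested.

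**Figure D1:**
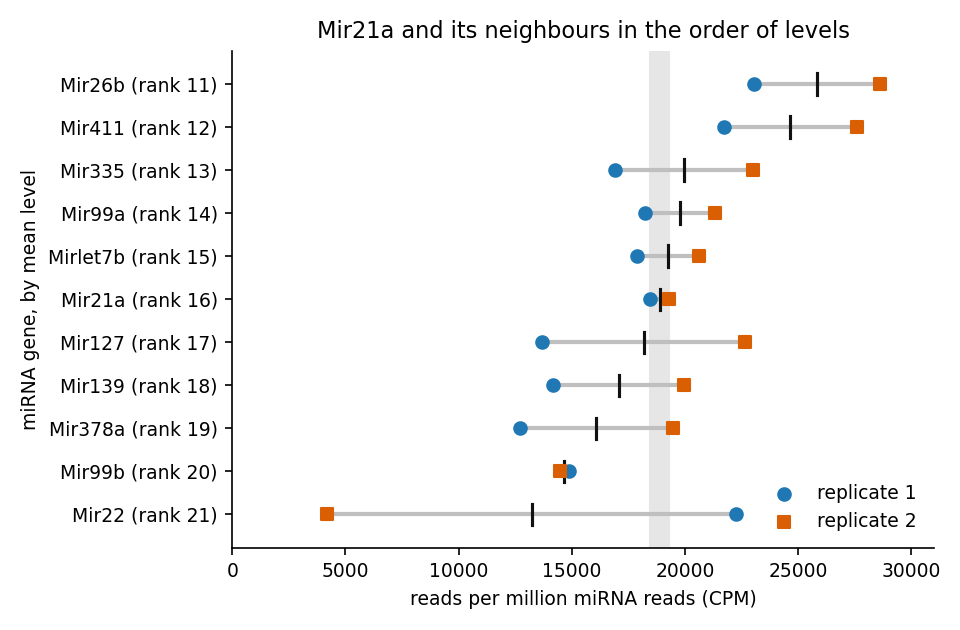
Levels in CPM (horizontal axis) of Mir21a and of the 5 detected miRNA genes next above and next below it by mean. Circles are replicate 1, squares replicate 2, black ticks the mean, and the grey band spans the Mir21a values of 18470 and 19306 CPM. The bars of 7 neighbours overlap the band, whereas Mir26b and Mir411 lie above it and Mir99b below it.

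The genes most like Mir21a in level were taken as those at the smallest Euclidean distance in log2(CPM + 1) over the 2 libraries. Nearest was Mirlet7b (17900 and 20640 CPM, distance 0.11), a let-7 miRNA whose hairpin shares a run with another gene, so that its count is uncertain. Mir99a followed (18236 and 21348 CPM, distance 0.15), a miRNA known to target the IGF1 receptor and mTOR. The distances of Mir335, an intronic miRNA of the imprinted gene Mest, Mir139, an intronic miRNA of Pde2a, and Mir127, an imprinted miRNA of the Dlk1-Dio3 region, were 0.28, 0.38 and 0.49. In CPM all 5 were higher in replicate 2, as was Mir21a, by a smaller margin. With 2 libraries, likeness in this sense is closeness of level and not a shared pattern.

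In CPM of total miRNA reads, the SD of Mir21a was 3.13% of its mean. Of the 50 most abundant genes 6 had a smaller relative SD in CPM, and the median over those 50 was 15.6%. The relative SD of Mir21a was 9.54% under TMM scaling and 7.42% under DESeq2 size factors. Under TMM scaling 9 of these 50 genes had a smaller ratio between the libraries, and 37 stayed within 1.5-fold, so closeness of this kind was common among abundant genes. Mir22, close to it by mean (rank 21), had 22261 and 4200 CPM. Mir99b, a relative of Mir99a at rank 20, had 14873 and 14484 CPM.

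**Figure D2:**
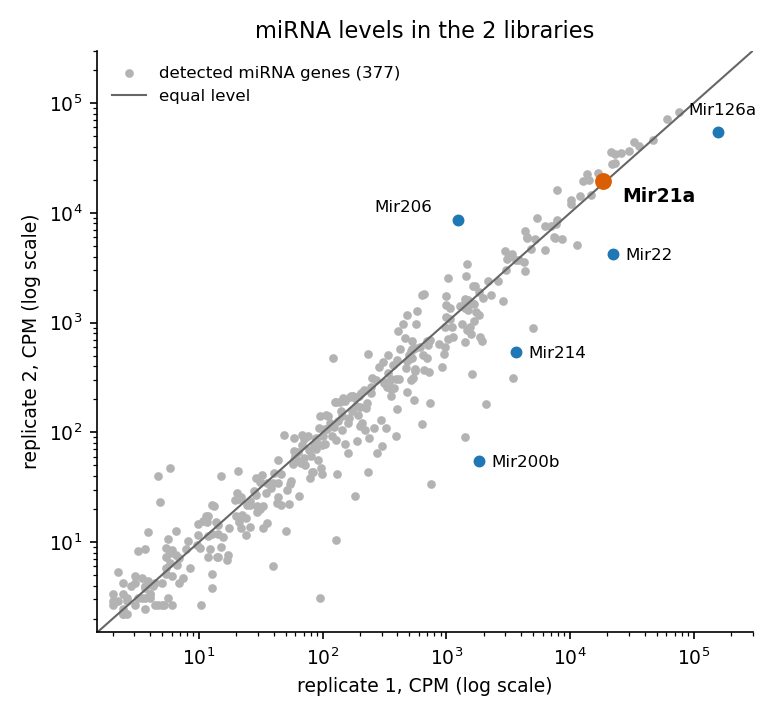
Level of each of the 377 detected miRNA genes in replicate 1 (horizontal axis) and replicate 2 (vertical axis), in CPM on log scales. Mir21a (large point) sits on the line of equal level at 18470 and 19306 CPM, whereas the labelled Mir126a, Mir22, Mir214, Mir200b and Mir206 lie off it.

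Set against counting error alone, the levels of Mir21a in the libraries differed by a small amount. With library sizes scaled by TMM (trimmed mean of M values, edgeR), the log2 ratio of replicate 2 over replicate 1 was 0.19 (95% exact interval 0.18 to 0.21), a 1.14-fold difference (exact binomial test, two-sided, adjusted p = 5.0e-178 over 377 genes). The test compares these libraries and no conditions. By the same rule 68.2% of the 377 genes were called, 35.5% as higher in replicate 2 and 32.6% as higher in replicate 1, so a call of this kind does not set Mir21a apart. Against the spread of the pair of libraries itself the difference was not called (edgeR's exact test between the single libraries, p = 0.83, adjusted p = 1), a rule by which 1.86% of the genes were called. That test takes its dispersion, a biological coefficient of variation of 0.433, from the very pair it compares, so a 1.14-fold ratio had little chance of a call, and the missing call says nothing about stability. With 2 libraries of 1 group, a test against the spread between animals was not possible.

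The direction of this difference depended on what the counts were divided by. Over 7 scalings, the ratio of replicate 2 over replicate 1 was above 1 in 5 and below 1 in 2, between 0.932-fold and 1.14-fold. It was 1.14-fold with TMM factors from all genes with a read, and its log2 value was 0.06 with the total of miRNA reads. With all reads of the library the log2 ratio was -0.02 (95% exact interval -0.04 to -0.01), and with the miRNA total less Mir126a it was -0.10 (-0.11 to -0.09), both called as higher in replicate 1. Mir126a, an endothelial miRNA and the most abundant gene, had 777971 reads in replicate 1 and 246547 in replicate 2. No higher or lower level of Mir21a in either library can therefore be stated. The place of its ratio among other genes does not depend on scaling, since a scaling moves all ratios alike. Of the other detected genes, 225 had a lower ratio of replicate 2 over replicate 1 than Mir21a and 151 a higher one.

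**Figure D3:**
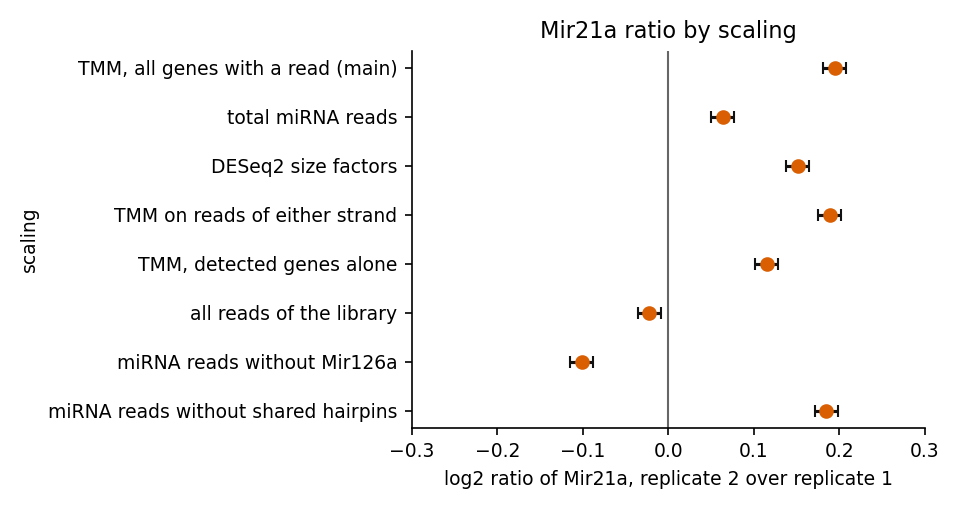
Log2 ratio of Mir21a in replicate 2 over replicate 1 (horizontal axis) under 8 ways of scaling or counting, with 95% exact intervals of counting error. Reads of either strand are shown with their own TMM factors. Of these, 6 lie to the right of 0, up to 0.19, and 2 to the left, at -0.02 with all reads and -0.10 without Mir126a.

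Among miRNAs studied in adrenal and other steroid-producing cells, Mir21a held the largest number of reads in both libraries. Of the 19 genes on this list, 18 were detected, and Mir466b-1, whose hairpin shares runs, had 0 reads. Mir21a made up 46.3% of the list's reads in replicate 1, with a 95% Wilson interval of 46.1 to 46.5. In replicate 2 it made up 62.9%, with an interval of 62.6 to 63.1, which gives a mean of 54.6% ± 11.7 (SD, n = 2). The hairpins of 6 members share runs, so the counts of these members are uncertain. Without those 6 the mean share was 57.0% ± 12.5 (SD, n = 2, 13 genes).

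Next in the list was Mir125a, known to repress Scarb1, the receptor that brings cholesterol into steroid-producing cells. It had 56727 reads (11436 CPM) in replicate 1 and 23091 (5124 CPM) in replicate 2. Mir21a thus had 1.62 and 3.77 reads per read of Mir125a. Mir214, a mesenchymal miRNA transcribed from Dnm3os, had 3641 and 542 CPM, and Mir455, a further miRNA directed at Scarb1, had 1001 and 1114 CPM. Mir132 and Mir212, neighbouring miRNAs that respond to ACTH and cyclic AMP, had 612 and 603 CPM and 37.9 and 31.3 CPM. Mir21a exceeded Mir132 30.2-fold in replicate 1 and 32.0-fold in replicate 2, and Mir212 487-fold and 617-fold, by reads. The lowest detected member by mean was Mir96, of the Mir183 cluster, with 63 and 17 reads, and Mir383 had 63 and 53.

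**Figure D4:**
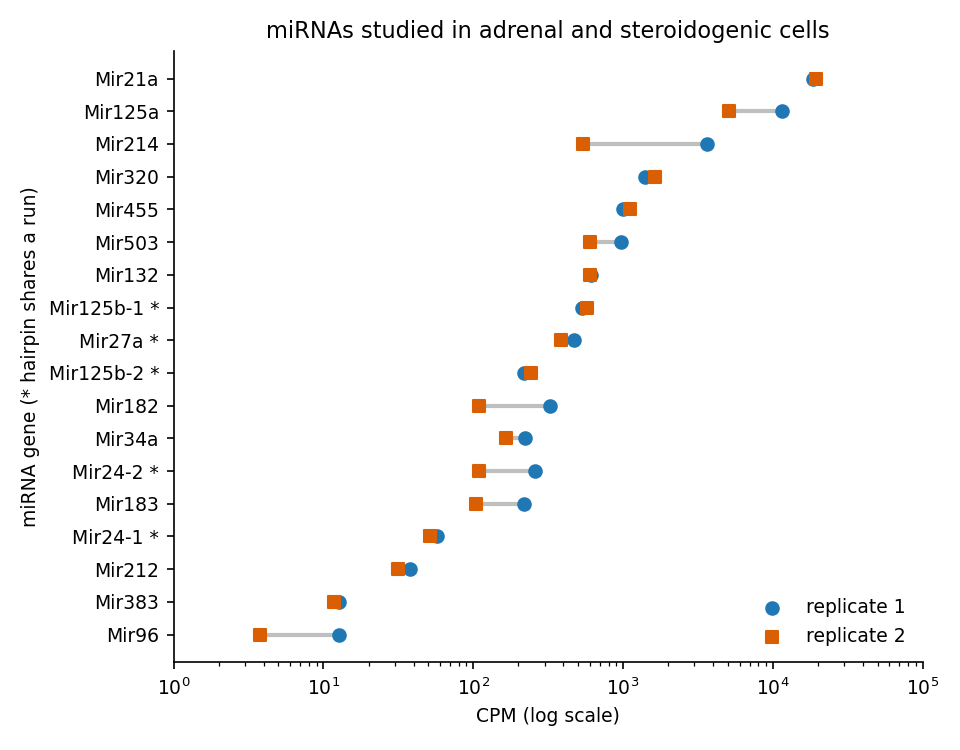
Level in CPM (log scale) of the 18 detected miRNAs studied in adrenal and steroidogenic cells, circles for replicate 1 and squares for replicate 2. Asterisks mark hairpins that share a run with another gene. Mir21a stands at the top with nearly equal levels, above Mir125a (11436 and 5124 CPM).

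The other members together had 106311 reads in replicate 1 and 51417 in replicate 2. Much of this sum was of 2 genes, Mir125a (56727 and 23091 reads) and Mir214 (18060 and 2444 reads). The share of Mir21a in the list therefore depends largely on them. Under TMM scaling 9 of the 18 detected members were called higher in replicate 1 and 6 in replicate 2, Mir21a among the latter, beside 32.6% and 35.5% of all detected genes, with a median log2 ratio of -0.15 beside 0.04. Over the 7 scalings these counts ran from 9 to 13 and from 0 to 6. Free of scaling, 13 of the 17 other detected members had a lower ratio of replicate 2 over replicate 1 than Mir21a, and 4 had a higher one. Of all other detected genes 59.8% had a lower one. Mir182, Mir96 and Mir183 are close neighbours on chromosome 6, so the members are not all separate observations.

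MiRNAs linked to TGF-beta signalling and fibrosis were mostly lower, relative to Mir21a, in replicate 2. Mir21a, which TGF-beta is known to induce, took 52.4% of the reads of this list of 18 genes in replicate 1 and 74.4% in replicate 2. Of the 17 detected, 13 were called higher in replicate 1 and 2 in replicate 2 (13 to 15 and 0 to 2 over the scalings), beside 32.6% and 35.5% of all detected genes. The median log2 ratio was -0.88, beside 0.04 over all. These members included Mir29a, which represses collagen genes (1579 and 781 CPM), Mir30a (6289 and 4565 CPM, its hairpin shares a run) and the miR-200 family of epithelial cells. Of the 16 other detected members, 15 had a lower ratio of replicate 2 over replicate 1 than Mir21a, beside 59.8% of all other detected genes. The exception, Mir30c-1, had 339 and 343 reads and also shares a run. Some members are close neighbours, such as Mir200a, Mir200b and Mir429 on chromosome 4, so the members are not all separate observations. The miR-200 family, Mir192, Mir199a-2, Mir199b and Mir214 are counted again in the lists of cell types and tissues below.

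Other miRNAs induced in inflammation were far less abundant. Mir146, a feedback inhibitor of NF-kappaB signalling whose hairpin shares a run, had 717 and 683 CPM. Mir223, a myeloid miRNA, had 418 and 569 CPM, and Mir155, of activated lymphocytes and macrophages, had 104 and 78.6 CPM. Mir147 (13 and 9 reads) and Mir146b (3 and 8 reads) did not reach the read minimum. Mir21a had 14.9 reads per read of the other 5 genes together in replicate 1 and 14.5 in replicate 2. Single members went both ways, with log2 ratios of 0.58 for Mir223 and -0.28 for Mir155 under TMM scaling.

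The tissue was whole adrenal gland, and Mir21a is not tied to a cell type, so miRNAs of cell types and tissues were set beside it. In bulk tissue fewer cells of a type and less RNA per cell cannot be told apart. No miRNA of the list is specific to the adrenal cortex. Mir375, known from neuroendocrine cells, had 36380 and 41025 CPM. The 6 neuroendocrine genes took 4.10% and 4.63% of miRNA reads, and Mir21a had 0.451 and 0.417 reads per read of that list. Mir375 held most of these reads, 180462 of 203241 in replicate 1 and 184879 of 208757 in replicate 2. Under TMM scaling Mir7-1, whose hairpin shares a run, and Mir153 were called higher in replicate 1. Mir375 and Mir7b were called higher in replicate 2, beside 32.6% and 35.5% of all detected genes. The 7 mesenchymal and smooth muscle genes took 3.05% and 3.77%, and Mir21a had 0.605 and 0.512 reads per read of the list. Most of this sum was Mir143 (25848 and 35132 CPM). Under TMM scaling 3 of the 5 detected members were called higher in replicate 1, Mir214, Mir199a-2 and Mir199b. Another 2, Mir143 and Mir145a, were called higher in replicate 2, beside 32.6% and 35.5% of all detected genes. The median log2 ratio was -0.51, beside 0.04 over all. The hairpins of Mir199a-2 and Mir199b share runs. The 4 leukocyte genes took 0.126% and 0.155%, and Mir21a had 14.7 and 12.4 reads per read of the list. The proportion of Mir21a to the summed reads of these 3 lists differed by less than a factor of 1.5 between the libraries, which does not hold for each of their members.

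Beside other lists it did not. The 3 endothelial genes took 17.1% of miRNA reads in replicate 1 and 7.47% in replicate 2, and Mir21a had 0.108 and 0.258 reads per read of the list. That fall was of Mir126a alone (156832 and 54709 CPM), while Mir139 went the other way (14194 and 19981 CPM) and Mir126b did not reach the read minimum. The 7 epithelial genes took 0.471% and 0.116%, and 6 of them were called higher in replicate 1, beside 32.6% of all detected genes. Mir203, of keratinocytes, went the other way (446 and 967 CPM). Mir21a had 3.92 and 16.6 reads per epithelial read. The 3 erythroid genes together took 0.106% and 0.0287%, with 17.4 and 67.3 reads of Mir21a per read. That fall was of Mir144 (301 and 75.0 CPM) and Mir451a (738 and 184 CPM), close neighbours on chromosome 11. Mir486 went the other way (20.4 and 27.7 CPM). The share of the 10 striated muscle genes together was higher in replicate 2, at 0.125% and 0.869%, with 14.7 and 2.22 reads of Mir21a per read. Nearly all reads of this list were of Mir206 alone, 6146 of 6221 in replicate 1 and 38876 of 39153 in replicate 2. Of the 10 genes, 7 did not reach the read minimum, and the hairpins of 6 share runs. Mir122 of liver took 0.145% and 0.264%, with 12.7 and 7.32, and the 4 kidney genes took 0.0375% and 0.0146%, with 49.2 and 133. The endothelial, epithelial, erythroid, striated muscle and kidney lists changed their share of miRNA reads more than 2-fold between the libraries. The share of Mir21a was 1.85% and 1.93%. All of these are shares of the miRNA total, and the part of these cell types in the Mir21a level was not tested.

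**Figure D5:**
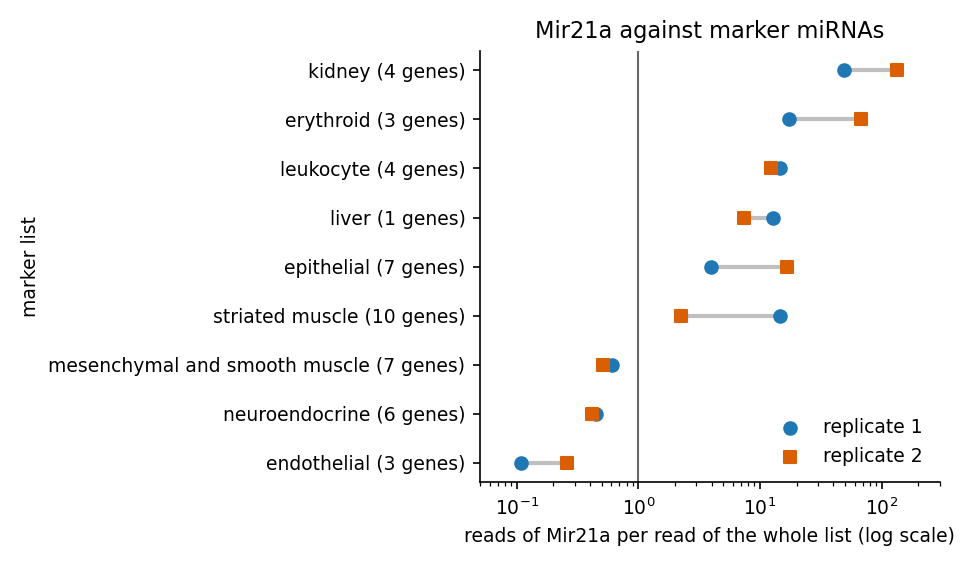
Reads of Mir21a per read of the whole marker list (log scale) for 9 lists of cell types and tissues, circles for replicate 1 and squares for replicate 2, with a line at equal reads. The neuroendocrine, mesenchymal and leukocyte ratios are close between libraries, and the striated muscle ratio runs from 14.7 to 2.22.

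Mir21b on chromosome 3 and Mir21c on chromosome 8, the genes named after Mir21a, had 0 reads in both libraries. Their hairpins share no run of 18 bases with others, so by this search the zeros are not those of copies left uncounted. Against a floor of 3 reads per library, Mir21a was at least 30541-fold higher than either gene in replicate 1 and at least 29001-fold higher in replicate 2. The uniquely mapped reads of the group named miR-21 thus came from the chromosome 11 gene as far as this depth shows.

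Within 2 Mb of Mir21a on chromosome 11 the annotation holds 6 other miRNA genes. Mir301, 528.8 kb away and of the miR-130/301 family, had 2092 and 180 CPM. Mir142, a miRNA of blood cells 1172.7 kb away, had 529 and 679 CPM. Mir5110, Gm23564 and Mir142b, annotated opposite Mir142, had 0 reads, and Mir378b had 4 and 5, where the hairpins of Gm23564 and Mir378b share runs. Mir21a had 8.83 reads per read of Mir301 in replicate 1 and 107 in replicate 2, so these neighbours on the chromosome were not level with each other between the libraries.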

How the data were processed

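MicroRNA-seq libraries of 2 adrenal samples (1 group) were used. The authors deposited whole-number read counts per miRNA gene, without normalization, on mm10 with GENCODE M21, per the descriptions deposited with the tables. No aligner or counting software is named, and both were not given in the sources used here. The tables have no header. The values showed column 2 to hold reads on either strand, column 3 the annotated strand, which was used, and column 4 the opposite strand. All 2202 identifiers matched GENCODE M21. Of 11704395 and 11288855 reads, 42.4% and 39.9% were assigned to miRNA genes, 25.8% and 26.1% were unmapped, 25.9% and 27.8% mapped to several places, and 5.96% and 6.24% fell in no miRNA gene. The last 3 kinds were left out of library sizes.

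CPM, ratios and intervals were computed with Python 3.11.15 and scipy 1.17.1. Detection needed 10 reads in both libraries. TMM factors (edgeR 4.0.16, 1.05 and 0.956) came from all genes with a read. The split of reads was tested with an exact binomial test and Benjamini-Hochberg adjustment over 377 genes at 0.05. The simulated data on which the test was tried held counting error alone, so they say nothing about spread between libraries. DESeq2 1.42.0 gave alternative size factors. Named were Mir21a, its 5 neighbours by mean on each side, the 5 nearest genes, miRNA genes within 2 Mb, genes with its seed and list members. Mir21a and the lists were chosen with earlier results of these data known. P-values measure only the difference of these libraries. A further list of miRNA genes is not reported here.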

Additional observations from a re-analysis of the deposited data

How the results depend on the processing

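The mean level of Mir21a was 18927 CPM under TMM scaling and 18910 under DESeq2 size factors, within 1 SD of 18888 CPM. These factors hardly move the mean of a pair by their construction. The single libraries moved further apart, to 17650 and 20203 CPM under TMM and 17917 and 19902 under DESeq2. Leaving out 1 replicate gave 18470 or 19306 CPM, which with 2 libraries lie within 1 SD of the mean by arithmetic. Other denominators changed the level by their construction. It was 7768 CPM of all reads, 21165 CPM without Mir126a, 27920 without hairpins that share runs and 22470 with reads of either strand. The rank was 14 to 19 over all alternatives but 1, and it was 10 without hairpins that share runs, where fewer genes were ranked. The share of the adrenal list was 46.3% to 62.9% and the opposite-strand share 0 to 0.00109% with 1 replicate left out.

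The log2 ratio of Mir21a was 0.19 and stayed positive and called with total reads, DESeq2 size factors, other read minimums, reads of either strand with their own TMM factors and, chosen after seeing the data, TMM factors of the detected genes and a total without shared hairpins. It reversed to -0.022 with all reads and to -0.10 without Mir126a, both chosen after seeing the data, and it was -0.10 by the plain total of either-strand reads. By edgeR's exact test the ratio of 0.19 was no longer called (adjusted p = 1, also with trended dispersion), a test whose dispersion comes from the pair itself. Of the genes tested, 257 differed by counting error (123 higher in replicate 1, 134 in replicate 2), and 7 by edgeR's exact test (24 at an unadjusted p under 0.05). The split was 144 and 112 with total reads, 167 and 87 with all reads, and 189 and 77 without Mir126a. A change in Mir21a smaller than the scalings differ, 0.30 on the log2 scale, cannot be read from these libraries. This is not a limit above which a change could be called. A larger one could not be set against the spread between animals either. No paired analysis was possible because the series holds 1 group, and leaving out a replicate leaves no ratio.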
